A study of Mus musculus with 4 samples.

Results

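The mitochondrial ribosomal proteins are the nuclear-encoded proteins of the ribosome inside mitochondria. Their genes were taken by name, as every gene whose symbol begins with Mrpl or Mrps followed by a digit, pseudogenes left out. This gave 77 of the 24411 gene symbols in the count files. All 77 had at least 10 counts over the 4 libraries, and all passed the expression filter, which kept 9992 genes. RNA sequencing was done on BV2 cells, an immortalised mouse microglial line, in 2 groups that share a genotype. In both groups the cells are labelled Pu.1 KO, made with CRISPR-Cas9. Spi1 is the gene for PU.1, a myeloid transcription factor of the ETS family. The first group, with 2 libraries, received lipopolysaccharide (LPS), the bacterial cell-wall component sensed by TLR4, at 10 ng/ml. The labels give its exposure as 2 h in one field and 4 h in another, which was not resolved. The second group, also with 2 libraries, was not treated. Whether the line is a single clone is not stated in the labels, and cells without the knockout are not analysed here, so the comparison is of LPS within this genotype.

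Mitochondria keep a small genome whose messages encode core subunits of the respiratory chain and the ATP synthase, and a dedicated ribosome translates them. Its proteins are all made in the cytosol from nuclear genes and imported, in contrast to the ribosomal RNAs, which come from the mitochondrial genome. Many have a counterpart in the bacterial ribosome, and the rest were added during the evolution of mitochondria. In macrophages, LPS is known to shift metabolism toward glycolysis and away from mitochondrial respiration.

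Gene counts totalled 3256197 and 3749159 in the LPS libraries and 4502105 and 4115011 in the untreated libraries. The counts of 5 abundant entries (Rn45s, Lars2, Mir6236, Rmrp and Rpph1) made up 28.7% and 27.7% of gene counts in the LPS libraries and 18.9% and 23.4% in the untreated libraries. Spi1 was counted at 258 and 291 CPM (counts scaled to the effective library size) in LPS libraries and 161 and 164 CPM in untreated libraries, which shows transcript of the targeted gene and does not show the edit. Tnf, a cytokine gene induced by LPS, was at 790.5 and 900.1 CPM in LPS libraries and 19.5 and 15.9 CPM in untreated libraries. The summed level of 12 macrophage and microglia markers was 3786 and 3992 CPM in LPS libraries and 2809 and 2893 CPM in untreated libraries. All 12 were detected, but P2ry12 averaged 0.173 CPM in LPS and 1.92 CPM in untreated libraries, and Tmem119, also a microglial marker, 5.46 CPM in LPS and 19.1 CPM in untreated libraries. Of 36 markers of 7 other cell types, 26 were at 0 in all 4 libraries, and their summed level was 52.0 and 35.8 CPM in LPS and 23.3 and 24.1 CPM in untreated libraries, nearly all from Kdr and Vwf. The part of these marker differences in the results below was not tested. Separate cultures are not stated in the labels, so p-values measure only the spread between these libraries, which may be technical.

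As a group, the mitochondrial ribosomal protein genes were lower in LPS libraries by a modest amount, with a few genes far from the rest. Of the 77 genes, 29 fell and 8 rose at an adjusted p below 0.05 (edgeR quasi-likelihood test, Benjamini-Hochberg adjustment over all tested genes), and 40 did not pass. Among all tested genes, 25.3% fell, 26.6% rose and 51.9% changed in either direction. Thus 37.7% of the family fell, above the background share, 10.4% rose, below it, and the total called, 48.1%, was close to the background. The family's median log2 fold change was -0.22, against 0.00 over all tested genes. These shares describe the family and were not tested against other genes.

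The summed level of the 77 genes was 3505 and 3827 CPM in the LPS libraries and 4156 and 4171 CPM in the untreated libraries. Both LPS libraries were below both untreated libraries, and the LPS pair was spread more widely (3666 ± 228 CPM in LPS and 4164 ± 10.0 CPM in untreated libraries, SD, n = 2 each). In CPM of single genes, both LPS libraries lay below both untreated libraries in 43 members, above them in 14, and overlapped them in 20. Over all tested genes the groups were apart with LPS below in 37.6% and with LPS above in 37.5%. As a share of all gene counts without any scaling, the members took 0.311% and 0.336% in LPS libraries and 0.483% and 0.458% in untreated libraries. In bulk RNA, fewer cells carrying a transcript and less of it per cell cannot be told apart.

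**Figure D1:**
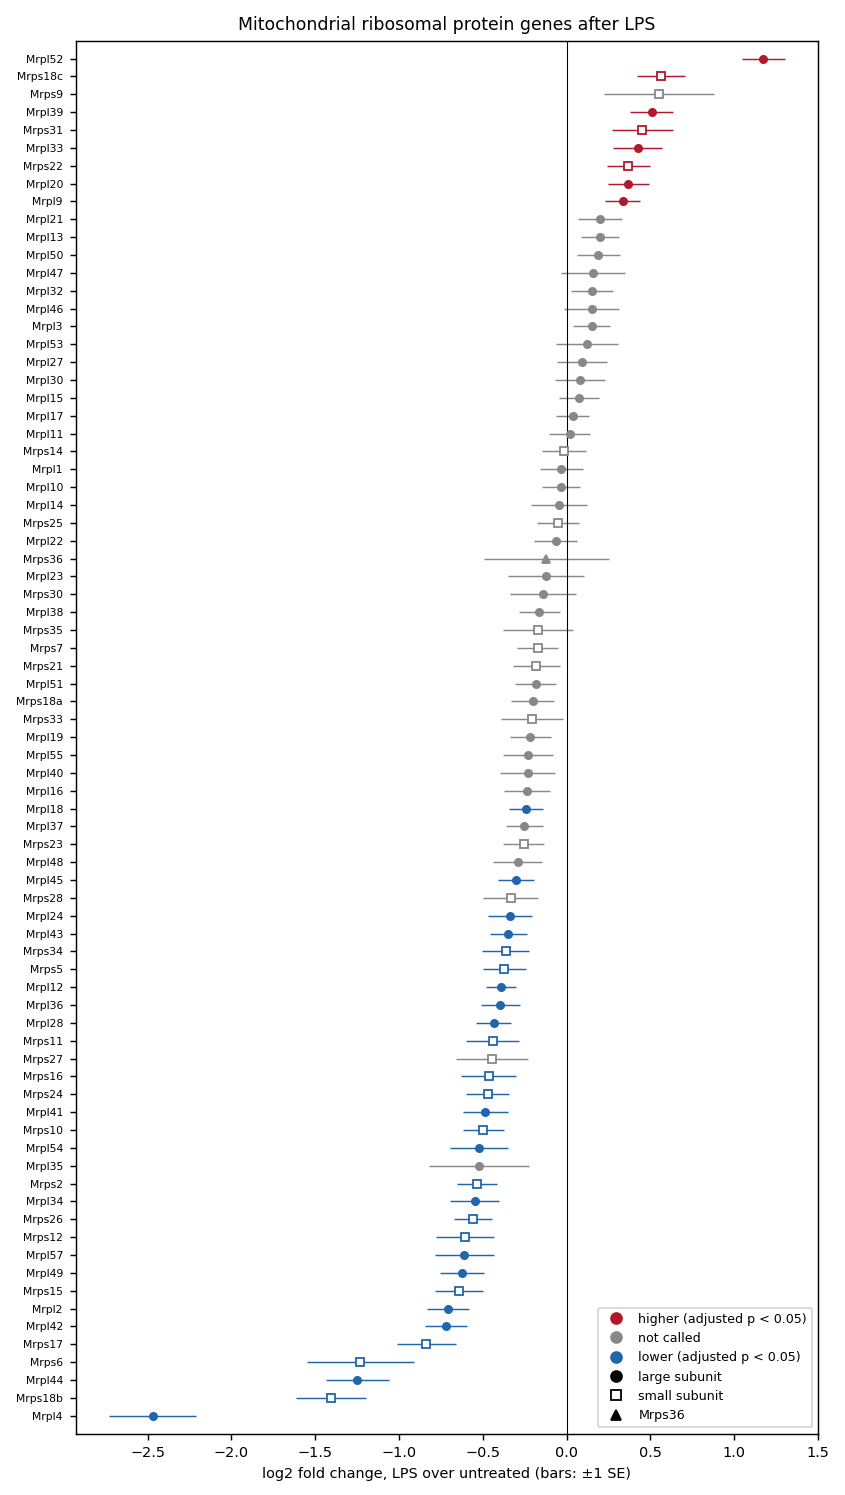
Fitted log2 fold change of LPS over untreated for each of the 77 genes (x axis), ordered by value, with bars of 1 standard error (SE); filled circles are large-subunit genes, open squares small-subunit genes and the triangle Mrps36. Colours mark the 29 genes that fell, the 8 that rose and the 40 that did not pass, and Mrpl4 at -2.47 and Mrpl52 at 1.17 stand at the ends.

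The direction of the family's median held under every scaling, whereas its size followed the scaling. TMM factors, which correct for a few very abundant transcripts, were 0.888 and 0.880 in LPS libraries and 1.16 and 1.10 in untreated libraries. Scaling by library size alone shifted the median of all tested genes to -0.36 and that of the members to -0.57, with 55 members lower and 1 higher, where 47.8% of all tested genes were lower and 13.8% higher. In that setting 77.6% of all called genes were lower, against 48.7% with TMM factors. Upper-quartile scaling moved all genes to -0.10 and the members to -0.31, with 37 lower and 3 higher, where the background was 30.6% lower and 22.2% higher. In all 4 scalings the members' median less that of all genes was -0.22. A scaling factor shifts all genes nearly alike, so this gap could hardly differ between scalings. The gap was -0.17 with GC offsets, and it ranged from -0.31 to -0.17 when a library was left out. DESeq2 called fewer genes in general, 12.8% of its 10970 tested genes lower and 16% higher, and called 13 members lower and 1 higher.

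The low end was led by 4 genes that fell at least 2-fold, 2 of each subunit. Of all tested genes, 7.73% were called lower by at least 2-fold and 9.47% higher. Mrpl4, whose protein lines the tunnel through which the new chain leaves the ribosome, was at 4.16 and 5.16 CPM in LPS libraries and at 30.4 and 21.5 CPM in untreated libraries. Its counts were 12 and 17 in the LPS libraries and 159 and 97 in the untreated libraries. The groups were far apart, although the untreated pair itself differed. Mrpl4 was 5.54-fold lower in LPS libraries (log2 fold change -2.47, SE 0.26, edgeR adjusted p = 3.0e-11). No other member changed as much in either direction. Across the other settings its log2 fold change ranged from -2.83 to -2.19. Mrpl4 had no opposite-strand reads in any library, so its count did not depend on the strand column.

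Next were Mrps18b, Mrpl44 and Mrps6. Mrps18b, a small-subunit protein, had 11.1 and 8.80 CPM in LPS libraries and 26.8 and 25.7 CPM in untreated libraries (log2 fold change -1.41, SE 0.21, edgeR adjusted p = 1.2e-07). Mrpl44, a large-subunit protein with an RNase III-like fold that sits near the tunnel exit, had 12.8 CPM in both LPS libraries and 28.3 and 32.7 CPM in untreated libraries (log2 fold change -1.25, SE 0.19, edgeR adjusted p = 2.1e-07). Mrps6, counterpart of a bacterial protein that pairs with S18, had 4.16 and 3.95 CPM in LPS libraries and 9.37 and 9.73 CPM in untreated libraries (log2 fold change -1.23, SE 0.32, edgeR adjusted p = 0.0011). Each had both LPS libraries well below both untreated libraries. Mrps6 had few reads, 118 over the 4 libraries, and its DESeq2 adjusted p was 0.075. It also shares an exon with Slc5a3 on the same strand, a myo-inositol transporter gene that fell too (log2 fold change -1.01, edgeR adjusted p = 1.8e-06), so its level is uncertain.

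The 6 further genes among the 10 largest falls were Mrps17, Mrpl42, Mrpl2, Mrps15, Mrpl49 and Mrpl57. Mrps17, whose bacterial counterpart binds early to the small-subunit RNA, had 14.9 and 19.1 CPM in LPS libraries and 31.7 and 29.4 CPM in untreated libraries (log2 fold change -0.84). Mrpl42, specific to mitochondria, had 45.7 and 56.2 CPM in LPS libraries and 88.2 and 80.3 CPM in untreated libraries (log2 fold change -0.72). Mrpl2, which lies by the peptidyl transferase centre, had 43.0 and 49.2 CPM in LPS libraries and 73.4 and 77.4 CPM in untreated libraries (log2 fold change -0.71). None of these 3 overlapped between the groups. Mrps15 was at 27.4 and 34.6 CPM in LPS libraries and 50.5 and 46.7 CPM in untreated libraries (log2 fold change -0.64), and Mrpl49 at 39.5 and 40.7 CPM in LPS libraries and 62.2 and 61.5 CPM in untreated libraries (log2 fold change -0.62). Mrpl57 was at 17.7 and 18.8 CPM in LPS libraries and 26.0 and 30.1 CPM in untreated libraries (log2 fold change -0.61, edgeR adjusted p = 0.0031). Without untreated replicate 2 the adjusted p of Mrpl57 was 0.063, and in DESeq2 it was 0.11.

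The other 19 falls had log2 fold changes between -0.61 and -0.24. Mrps12, counterpart of the bacterial decoding-centre protein, had 20.4 and 18.2 CPM in LPS libraries and 28.1 and 30.7 CPM in untreated libraries. Mrps2 had 56.1 and 54.9 CPM in LPS libraries and 81.7 and 79.2 CPM in untreated libraries. Mrps26, found only in the mitochondrial small subunit, had 64.8 and 79.2 CPM in LPS libraries and 102 and 111 CPM in untreated libraries. Both LPS libraries were below both untreated libraries in each. In the large subunit, Mrpl45, which helps to hold the ribosome at the inner membrane, had 84.6 and 93.2 CPM in LPS libraries and 107 and 112 CPM in untreated libraries (log2 fold change -0.30). Mrpl24, a tunnel protein, had 44.0 and 46.4 CPM in LPS libraries and 60.4 and 53.7 CPM in untreated libraries (log2 fold change -0.34). These 5 were chosen for their roles after their values were seen. Mrps2 and Mrps26 were called under every setting run. The adjusted p of Mrps12 was 0.10 in DESeq2 and 0.11 in edgeR with GC offsets. That of Mrpl45 was 0.13 in DESeq2, and in edgeR 0.065 without untreated replicate 1, 0.14 without untreated replicate 2 and 0.078 without LPS replicate 1. That of Mrpl24 was 0.23 in DESeq2, and in edgeR 0.27 without untreated replicate 1, 0.081 without LPS replicate 1, 0.15 with unstranded counts and 0.0503 with length offsets.

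At the high end, Mrpl52 stood alone. Mrpl52 is a mitochondria-specific protein of the central protuberance, the crown of the large subunit. It was at 77.6 and 74.7 CPM in LPS libraries and 31.6 and 36.0 CPM in untreated libraries, 76.2 ± 2.08 CPM and 33.8 ± 3.18 CPM (SD, n = 2 each), with the groups far apart. The rise was 2.26-fold (log2 fold change 1.17, SE 0.13, edgeR adjusted p = 5.4e-11). Mrpl52 was the only riser past 2-fold, and the only riser called under every setting run, with log2 fold changes from 0.82 to 1.33. DESeq2 and scaling by library size called no other riser.

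The 7 other rises were smaller, and only Mrps18c and Mrpl39 passed in each fit that left out a library. Mrps18c had 43.7 and 42.8 CPM in LPS libraries and 30.4 and 27.9 CPM in untreated libraries (log2 fold change 0.57, SE 0.14, edgeR adjusted p = 0.00086). Mrpl39, related in sequence to threonyl-tRNA synthetase, had 54.1 and 58.9 CPM in LPS libraries and 40.7 and 38.7 CPM in untreated libraries (log2 fold change 0.51, SE 0.13, edgeR adjusted p = 0.00085). In both genes the LPS pair lay above the untreated pair. In DESeq2 their adjusted p was 0.058 for Mrps18c and 0.054 for Mrpl39, and with library-size scaling it was 0.24 for Mrps18c and 0.36 for Mrpl39.

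Mrps31, Mrpl33, Mrps22, Mrpl20 and Mrpl9 had log2 fold changes of 0.45, 0.43, 0.37, 0.37 and 0.33. Mrpl9, counterpart of bacterial L9, had 107 and 123 CPM in LPS libraries and 92.2 and 91.1 CPM in untreated libraries. Mrps22, in which human mutations cause mitochondrial disease, had 58.6 and 56.2 CPM in LPS libraries and 45.9 and 42.7 CPM in untreated libraries. Mrpl33 had 41.6 and 38.3 CPM in LPS libraries and 28.7 and 30.7 CPM in untreated libraries. Mrps31, a protein of the small-subunit head, had 24.3 and 24.0 CPM in LPS libraries and 18.9 and 16.1 CPM in untreated libraries, and Mrpl20, whose bacterial counterpart acts in assembly, had 68.6 and 76.5 CPM in LPS libraries and 59.5 and 52.9 CPM in untreated libraries. The groups did not overlap in any of the 5, but their calls depended on single libraries and on the scaling. None of the 5 was called in DESeq2, with upper-quartile scaling or with library-size scaling, and under the last Mrpl9 was at -0.024. Without untreated replicate 1 the edgeR adjusted p was 0.053 for Mrps31, 0.14 for Mrpl33, 0.053 for Mrps22 and 0.067 for Mrpl9. Without untreated replicate 2 it was 0.25 for Mrps31, 0.055 for Mrpl33, 0.16 for Mrps22, 0.19 for Mrpl20 and 0.083 for Mrpl9. Without LPS replicate 1 it was 0.074 for Mrps31 and 0.062 for Mrpl33, and without LPS replicate 2 it was 0.077 for Mrps31, 0.085 for Mrpl20 and 0.098 for Mrpl9. Over the family, 4 genes rose without untreated replicate 1, 3 without untreated replicate 2, 8 without LPS replicate 1 and 5 without LPS replicate 2. The number that fell was 23, 21, 22 and 32 in the same order of libraries. The background share of rises was 21.4%, 20.9%, 25% and 24.5% in these fits, and that of falls 19.6%, 19.2%, 23.2% and 22.4%.

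**Figure D2:**
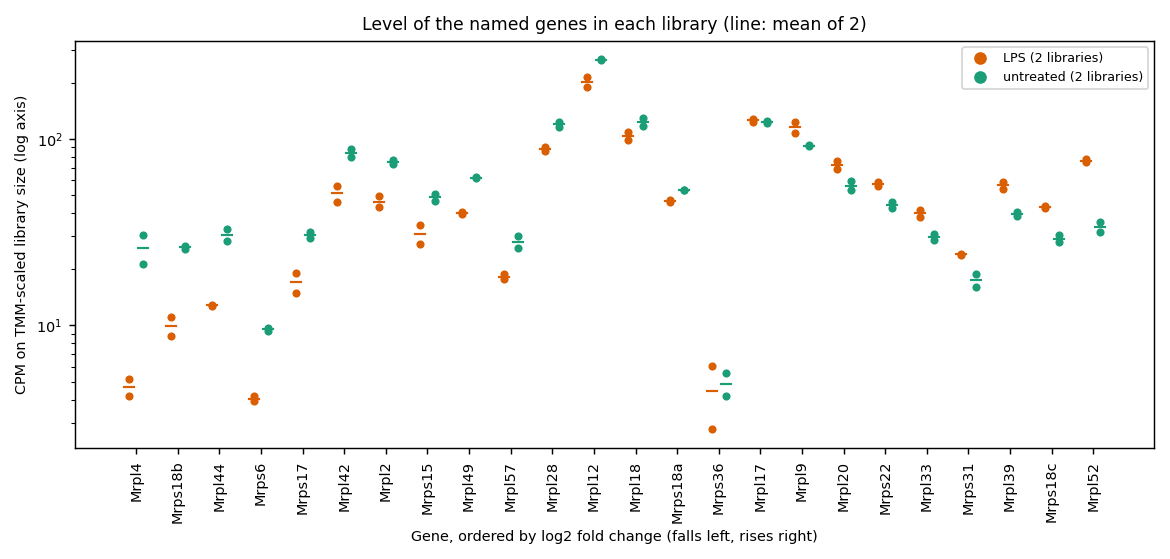
CPM on a log axis of each named gene in each library, ordered from the largest fall (left) to the largest rise (right), with LPS libraries in orange to the left of untreated libraries in green and a line at the mean of 2. Mrpl4 lies at 4.16 and 5.16 CPM in LPS and 30.4 and 21.5 CPM in untreated libraries, and Mrpl52 at 77.6 and 74.7 CPM in LPS and 31.6 and 36.0 CPM in untreated libraries.

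The 3 genes named Mrps18, related in sequence to bacterial S18, showed different values. Mrps18c, which sits where S18 does in bacteria and is counted below among the members with a bacterial counterpart, rose. Mrps18b, which sits elsewhere in the small subunit and is counted as mitochondria-specific, fell. Mrps18a, which despite its name is part of the large subunit and is also counted as mitochondria-specific, had 46.8 and 45.8 CPM in LPS libraries and 53.4 and 53.1 CPM in untreated libraries and did not pass (log2 fold change -0.20, edgeR adjusted p = 0.19). The difference of fold changes between these genes was not tested. The stretches of 250 bases before the annotated starts of Mrps18c and Mrps18b are set out here with those of Mrpl52 and Mrpl44. Mrpl52 and Mrps18c had the largest rises, and Mrps18b and Mrpl44 the largest falls after Mrpl4. Mrpl4 had no window matched by symbol and is not shown. The stretches are RefSeq sequences of build GRCm38.p6, 5′ to 3′ on the gene's own strand. The intervals are chr14:54426659-54426908 (plus strand) for Mrpl52, chr5:100798509-100798758 (plus strand) for Mrps18c, chr17:35916441-35916690 (minus strand) for Mrps18b and chr1:79775768-79776017 (plus strand) for Mrpl44. Capitals mark a match to a motif searched. In Mrps18c this is the ETS motif and in Mrpl44 the NRF1 motif.
Mrpl52: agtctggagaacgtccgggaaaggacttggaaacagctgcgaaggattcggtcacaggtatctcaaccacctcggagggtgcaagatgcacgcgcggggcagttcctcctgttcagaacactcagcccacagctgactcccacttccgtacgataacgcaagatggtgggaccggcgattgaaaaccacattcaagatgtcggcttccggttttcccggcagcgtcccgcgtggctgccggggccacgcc
Mrps18c: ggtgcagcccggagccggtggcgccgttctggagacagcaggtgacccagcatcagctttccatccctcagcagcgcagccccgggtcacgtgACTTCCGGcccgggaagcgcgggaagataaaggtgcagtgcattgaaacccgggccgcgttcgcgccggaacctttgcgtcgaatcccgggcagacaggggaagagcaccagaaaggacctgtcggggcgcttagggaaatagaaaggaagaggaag
Mrps18b: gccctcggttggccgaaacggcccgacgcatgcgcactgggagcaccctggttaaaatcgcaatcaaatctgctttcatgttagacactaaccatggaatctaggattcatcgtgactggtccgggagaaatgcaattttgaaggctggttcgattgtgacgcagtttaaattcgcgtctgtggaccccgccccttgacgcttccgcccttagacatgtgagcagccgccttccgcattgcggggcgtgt
Mrpl44: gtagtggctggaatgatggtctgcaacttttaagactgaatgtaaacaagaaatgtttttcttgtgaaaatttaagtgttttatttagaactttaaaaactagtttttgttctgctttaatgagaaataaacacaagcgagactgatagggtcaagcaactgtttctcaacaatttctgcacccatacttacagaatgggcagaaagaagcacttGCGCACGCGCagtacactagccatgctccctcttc

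The 4 motifs searched on both strands were NRF1 (GCGCA, any base, then GCGC), ETS (CCGGAAGT), PU.1 (GAGGAAGT) and NF-kB (GGG, any pair of bases, then TTTCC). NRF1 and the ETS factor GABP are activators of nuclear genes for mitochondrial proteins. The ETS and PU.1 motifs share the letters GGAAGT but differ before them, so they cannot match at the same place. RefSeq windows matched 68 of the 77 members by symbol, and Mrpl4 was not among them. The NRF1 letters occurred in 10 of these 68 (14.7%), against 10.7% of 7703 tested genes. Counted by window, they were in 13.5% of 74 member windows and 3.74% of all 32851 windows. The ETS letters also occurred in 10 of the 68 members (14.7%), against 7.88% of tested genes. By window they were in 13.5% of member windows and 2.88% of all windows. NRF1 matches fell in 2 of 8 risers, 4 of 26 fallers and 4 of 34 members that did not pass, and ETS matches in 2, 3 and 5 of the same groups. The PU.1 letters were found in Mrps10 alone (1.47% of members and 3.31% of tested genes, or 1.35% of member windows and 2.44% of all windows). The NF-kB letters were in none of the 68, against 1.88% of tested genes and 1.41% of windows. The Mrpl52 and Mrps18b windows held none of the 4 motifs. A match is a run of letters and not a measured site.

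By subunit, the small subunit had the larger share of falls. Of 26 small-subunit genes, 13 fell and 3 rose, with a median log2 fold change of -0.37. Of 50 large-subunit genes, 16 fell and 5 rose, with a median of -0.17. The shares over all tested genes were 25.3% lower and 26.6% higher. Without untreated replicate 1, untreated replicate 2, LPS replicate 1 and LPS replicate 2, the large-subunit median was -0.21, -0.12, -0.09 and -0.22. Less the median of all tested genes it was -0.21, -0.12, -0.08 and -0.21, so it was slight without LPS replicate 1. In the same order the small-subunit median was -0.45, -0.33, -0.30 and -0.41. Less the median of all tested genes it was -0.45, -0.33, -0.28 and -0.40. With GC offsets the medians were -0.09 in the large and -0.30 in the small subunit. Summed levels were 911 ± 40.5 CPM in LPS and 1124 ± 0.537 CPM in untreated libraries for the small subunit, and 2750.3 ± 185 CPM in LPS and 3035 ± 10.4 CPM in untreated libraries for the large subunit (SD, n = 2 each). The small-subunit median was the lower of the 2 in each of the settings run. Whether the subunits differ was not tested.

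Members with a bacterial counterpart and those specific to mitochondria gave like medians, -0.20 over 46 genes (18 lower, 4 higher) and -0.24 over 30 genes (11 lower, 4 higher). Within the small subunit, 10 of 16 genes with a bacterial counterpart fell and 1 rose, and 3 of 10 mitochondria-specific genes fell and 2 rose. Within the large subunit, 8 of 30 with a counterpart fell and 3 rose, and 8 of 20 mitochondria-specific genes fell and 2 rose. Over all tested genes, 25.3% fell and 26.6% rose. The 26.7% of large-subunit genes with a counterpart that fell is near that share. Regions of the ribosome were grouped after the values were seen. The small-subunit head had a median of -0.17 (2 of 8 lower, 1 higher), its 25% of falls being near the share of all tested genes. The small-subunit genes not placed in the head, a remainder and not an assigned region, had a median of -0.44 (11 of 18 lower, 2 higher). Around the exit tunnel without Mrpl4 the median was -0.09 (3 of 8 lower, 1 higher). With Mrpl4 included it was -0.12, with 4 of 9 lower. The central protuberance had a median of -0.20 (1 of 8 lower, 1 higher). In the stalk, which recruits translation factors, 2 of 5 fell and none rose. Mrps36, a protein of the oxoglutarate dehydrogenase complex that carries a ribosomal name, had 2.77 and 6.07 CPM in LPS libraries and 5.55 and 4.20 CPM in untreated libraries. Its libraries overlapped, and with 76 counts over all 4 its level was poorly measured (log2 fold change -0.12, edgeR adjusted p = 0.81).

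Among the 5 most abundant members, the largest by CPM was Mrpl12, the stalk protein, also reported to bind the mitochondrial RNA polymerase. It was at 190.3 and 215 CPM in LPS libraries and 265 and 267 CPM in untreated libraries (log2 fold change -0.39, SE 0.09, edgeR adjusted p = 0.00026). Mrpl28 was at 86.3 and 90.8 CPM in LPS libraries and 116 and 123 CPM in untreated libraries (log2 fold change -0.43, edgeR adjusted p = 0.00049). Mrpl18, of the central protuberance, was at 98.4 and 109 CPM in LPS libraries and 117 and 129 CPM in untreated libraries (log2 fold change -0.24, edgeR adjusted p = 0.045). The groups were apart in all 3. The Mrpl18 adjusted p was 0.067 without untreated replicate 1, 0.36 without untreated replicate 2, 0.19 without LPS replicate 1 and 0.23 in DESeq2. Mrpl17 was at 128 and 124 CPM in LPS libraries and 124 and 121 CPM in untreated libraries, and its groups overlapped (log2 fold change 0.04, edgeR adjusted p = 0.78). The fifth, Mrpl9, is given above.

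Per length of transcript, in CPM per kilobase, members spanned a wide range. The highest was 113 times the lowest in LPS libraries and 87.0 times in untreated libraries, and the median was 30.8 in LPS and 37.0 in untreated libraries. The order of the 77 genes was nearly kept, with a Spearman correlation of 0.95 between the groups' per-length levels (n = 77 genes of the same libraries, a description). Mrpl12 ranked first in untreated libraries, at 145 and 163 in LPS and 201 and 203 in untreated libraries. Mrpl52 ranked 1 in LPS libraries, at 186 and 179, and 8 in untreated libraries, at 75.5 and 86.2. These lengths are of the transcript annotated as principal. For Mrpl52 it has 418 bases and the longest transcript 856, so its rank rests on that choice. Mrpl35 ranked last in both groups.

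The 40 genes that did not pass had log2 fold changes from -0.52 to 0.55. In 14 of them both LPS libraries were below both untreated libraries, in 6 above, and in 20 they overlapped. These 20 are all the members that overlapped, so every called member was apart. Over all tested genes, LPS was below in 37.6% and above in 37.5%, so groups apart were common. The ends of the range of fold changes were genes with few reads. Mrpl35 had 6.58 and 5.46 CPM in LPS libraries and 8.22 and 9.07 CPM in untreated libraries (edgeR adjusted p = 0.14), and Mrps9, whose bacterial counterpart reaches the peptidyl site, had 6.93 and 6.68 CPM in LPS libraries and 4.02 and 5.31 CPM in untreated libraries (edgeR adjusted p = 0.16). In others the LPS replicates were far apart. Mrpl40 had 36.4 and 60.4 CPM in LPS libraries and 56.4 and 58.6 CPM in untreated libraries, and Mrps7 had 67.2 and 92.6 CPM in LPS libraries and 95.4 and 85.4 CPM in untreated libraries.

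Members with GC-rich transcripts tended to have lower fold changes. The Spearman correlation of log2 fold change with GC content of the longest annotated transcript was -0.36 over the 77 members and -0.31 over 9649 tested genes with a transcript (descriptions, since genes share the libraries). Median GC content was 47.8% in the 8 genes that rose, 51.7% in the 29 that fell and 47.1% in the 40 that did not pass. With offsets corrected for GC content, 23 members were lower and 8 higher (background 22.6% lower and 26.8% higher) and the median was -0.15. Of the 29 falls, 19 kept the call and 10 lost it, among them Mrpl12, Mrpl18, Mrpl28, Mrpl34, Mrpl43, Mrpl54, Mrps12, Mrps24 and Mrps34, while 4 other members gained it. Mrpl12 was then at -0.13 (edgeR adjusted p = 0.21) and Mrpl28 at -0.07 (edgeR adjusted p = 0.57), so both calls rested on the uncorrected scale. Mrpl18 was at -0.18 (edgeR adjusted p = 0.13) and Mrps31 at 0.32 (edgeR adjusted p = 0.13). Mrpl4 at -2.21 and Mrpl52 at 1.33 remained at the ends of the named genes. With offsets corrected for length, 26 members were lower and 8 higher (background 25.1% lower and 28.9% higher), the median was -0.17 and the Mrpl18 adjusted p was 0.092.

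**Figure D3:**
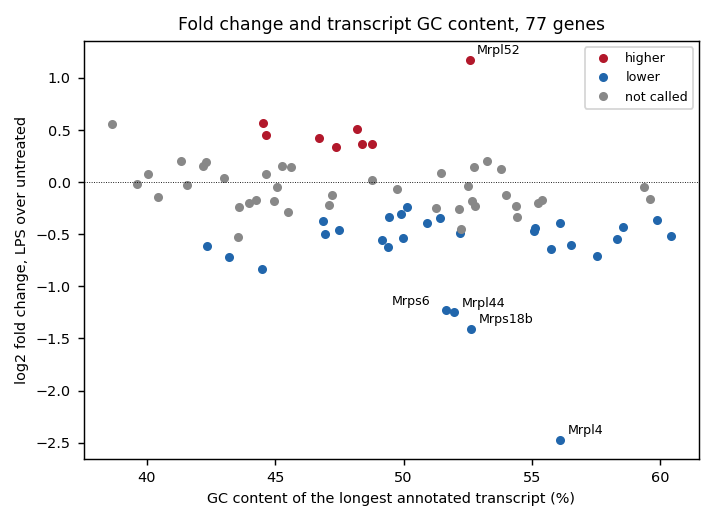
Log2 fold change of LPS over untreated (y axis) against GC content in percent of the longest annotated transcript (x axis) for the 77 genes, coloured by call. Lower values lie toward high GC content, with a Spearman correlation of -0.36, and Mrpl52 at 1.17 and Mrpl4 at -2.47 stand apart from the rest.

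The chromosomal neighbours of Mrpl4 and Mrpl52 were looked up in the RefSeq gene order of GRCm38.p6 after the values were seen. Mrpl4 lies between S1pr2 and Icam1. Icam1, an adhesion molecule gene on the same strand as Mrpl4, had 388 and 381 CPM in LPS libraries and 57.4 and 48.7 CPM in untreated libraries (7.23-fold higher, edgeR adjusted p = 4.8e-29). S1pr2, a lipid receptor gene on the opposite strand, had 47.5 and 54.0 CPM in LPS libraries and 27.0 and 25.4 CPM in untreated libraries (log2 fold change 0.96, edgeR adjusted p = 1.5e-07). Both neighbours rose where Mrpl4 fell. Mrpl52 lies between Slc7a7 and Mmp14. Slc7a7, an amino acid transporter gene on the opposite strand, had 3.12 and 3.64 CPM in LPS libraries and 1.15 and 1.55 CPM in untreated libraries (log2 fold change 1.33, edgeR adjusted p = 0.025), and thus moved the same way as Mrpl52. Mmp14 had no count in any library. Where counting could mix genes, levels are uncertain: besides Mrps6, an exon of Mrps24, Mrps34, Mrpl33 and Mrpl53 is shared with another gene on the same strand in GENCODE vM21, and Mrpl23, Mrpl48 and Mrps36 have named pseudogenes.

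Other lists of mitochondrial gene expression are set beside the all-gene shares of 25.3% lower and 26.6% higher. Of 6 mitoribosomal proteins under other symbols, 4 fell and none rose (median -0.28). Gadd45gip1, a large-subunit protein, had 72.4 and 103 CPM in LPS libraries and 159 and 162 CPM in untreated libraries (log2 fold change -0.87, edgeR adjusted p = 3.0e-07), and Ict1, a peptidyl-tRNA hydrolase built into the large subunit, had 9.70 and 14.6 CPM in LPS libraries and 19.5 and 24.8 CPM in untreated libraries (log2 fold change -0.84). Dap3 and Ptcd3 of the small subunit had log2 fold changes of -0.31 and -0.25. The number that fell was 2 without untreated replicate 1 and 1 in DESeq2.

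Of 27 assembly and RNA modification factors, 8 fell (29.6%, near the share of all genes) and 4 rose (median -0.19, and -0.03 after GC correction). Noa1, a GTPase of small-subunit assembly, had 30.1 and 23.1 CPM in LPS libraries and 61.2 and 61.9 CPM in untreated libraries (log2 fold change -1.22, edgeR adjusted p = 4.4e-10). Mettl17, Rbfa and Ddx28 had log2 fold changes of -1.28, -0.62 and -0.51. After GC correction the edgeR adjusted p was 0.087 for Rbfa and 0.077 for Ddx28. The 4 rises became 2, 1, 3 and 2 when untreated replicate 1, untreated replicate 2, LPS replicate 1 and LPS replicate 2 were left out.

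Of 15 tested translation factors, 6 fell and none rose (median -0.31), with 4 to 6 lower when a library was left out, 4 of them without untreated replicate 1 or 2. Mrrf, which recycles ribosomes, had 7.28 and 9.71 CPM in LPS libraries and 19.3 and 18.6 CPM in untreated libraries (log2 fold change -1.14, edgeR adjusted p = 4.2e-05). Tufm, the elongation factor that delivers aminoacyl-tRNA, had 147 and 150.3 CPM in LPS libraries and 188 and 199 CPM in untreated libraries (log2 fold change -0.38), and -0.12 after GC correction (edgeR adjusted p = 0.25). Its exchange factor Tsfm had a log2 fold change of -0.66. Of 10 tested genes of mitochondrial transcription and DNA upkeep, 3 fell and 2 rose, counts again near the shares of all genes. Their median was lower, at -0.33 against 0.00 over all tested genes, and at -0.25 against 0.02 with GC offsets. The falls were 2, 3, 3 and 2 and the rises 1, 0, 2 and 0 without untreated replicate 1, untreated replicate 2, LPS replicate 1 and LPS replicate 2, and GC offsets gave 4 falls and no rise, length offsets 3 of each. Polrmt, the mitochondrial RNA polymerase, had 10.0 and 13.4 CPM in LPS libraries and 39.6 and 35.2 CPM in untreated libraries (log2 fold change -1.66, edgeR adjusted p = 1.2e-10). Polg, the mitochondrial DNA polymerase, had a log2 fold change of -0.61, and Tefm, an elongation factor, had 27.4 and 41.3 CPM in LPS libraries and 26.4 and 24.1 CPM in untreated libraries (log2 fold change 0.45, edgeR adjusted p = 0.020, and 0.67 without LPS replicate 2).

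Among 9 tested regulators of mitochondrial biogenesis, 3 rose and 2 fell (33.3% and 22.2%, against 26.6% and 25.3% of all tested genes). Without untreated replicate 1, untreated replicate 2, LPS replicate 1 and LPS replicate 2 the rises were 1, 2, 2 and 3 and the falls 2, 1, 2 and 0. Myc had few reads, with 6.24 and 4.25 CPM in LPS libraries and 0.191 and 0.885 CPM in untreated libraries (log2 fold change 3.26, edgeR adjusted p = 4.5e-06). Gabpa, the DNA-binding part of GABP, had 86.6 and 74.7 CPM in LPS libraries and 53.2 and 64.6 CPM in untreated libraries (log2 fold change 0.46, edgeR adjusted p = 0.0017). The Gabpa log2 fold change was 0.31 without untreated replicate 1 and 0.22 with GC offsets (edgeR adjusted p = 0.13). Its adjusted p was 0.055 in DESeq2 and 0.52 in edgeR with library-size scaling. Pprc1, a coactivator of the PGC-1 family, had 44.0 and 27.6 CPM in LPS libraries and 49.5 and 48.2 CPM in untreated libraries (log2 fold change -0.46, edgeR adjusted p = 0.012). The Pprc1 log2 fold change was -0.15 without LPS replicate 2 and -0.21 with GC offsets (edgeR adjusted p = 0.28). Its DESeq2 adjusted p was 0.16. With GC offsets the list had 2 rises and 0 falls.

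The respiratory chain and ATP synthase subunits were counted in the same way. Of 74 tested nuclear genes, 28 fell (37.8%, against 25.3% of all tested genes) and 3 rose (4.05%, against 26.6%), with a median log2 fold change of -0.20 and summed levels of 8400.0 ± 543 CPM in LPS and 9716 ± 27.9 CPM in untreated libraries (SD, n = 2 each). The median was -0.11 with 22 falls and 5 rises without LPS replicate 1, and -0.30 with 38 falls and 1 rise without LPS replicate 2. There were 20 falls and no rise without untreated replicate 2, and 23 falls and 3 rises without untreated replicate 1. Ndufs7, an iron-sulphur subunit of complex I, had 30.1 and 34.9 CPM in LPS libraries and 67.9 and 71.0 CPM in untreated libraries (log2 fold change -1.09, edgeR adjusted p = 1.6e-09). Cytosolic ribosomal proteins had no such tilt with TMM factors: 16 of 77 tested fell, 20 rose, and the median was -0.01. Their summed level was 43139 ± 4074 CPM in LPS and 43199 ± 558 CPM in untreated libraries (SD, n = 2 each). Their median turned on the library, at 0.08 without LPS replicate 1 and -0.10 without LPS replicate 2, against -0.01 over all tested genes in each. Library-size scaling gave 51 lower and 4 higher, where 47.8% of all tested genes were lower and 13.8% higher. Their median was then -0.37, beside -0.36 over all tested genes. In that scaling the respiratory chain list had 64 lower and 0 higher, so the shift was common to the lists. No test compared the lists with each other.

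**Figure D4:**
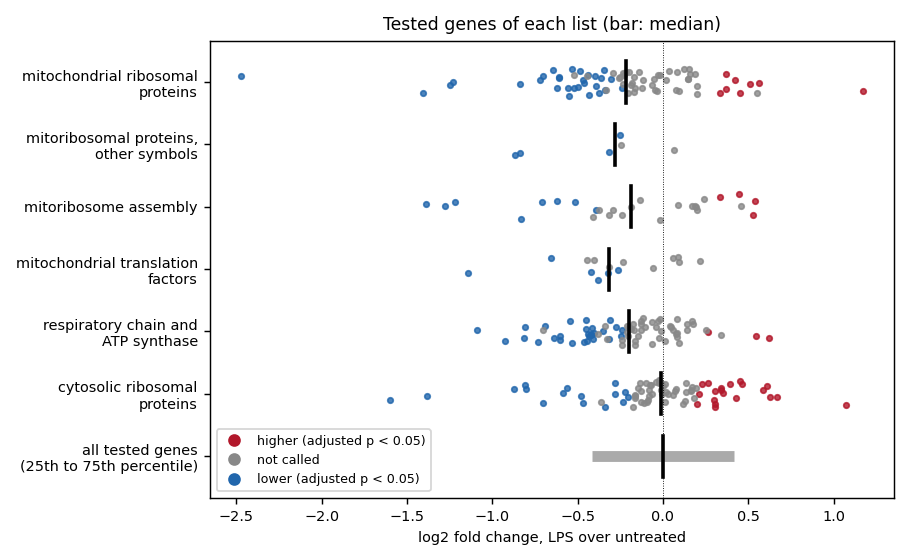
Log2 fold change of LPS over untreated (x axis) for each tested gene of 6 lists, coloured by call, with a bar at the list's median, and for all tested genes the median and the 25th to 75th percentile. Medians are -0.22 for mitochondrial ribosomal proteins, -0.20 for the respiratory chain and -0.01 for cytosolic ribosomal proteins.

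**Figure D5:**
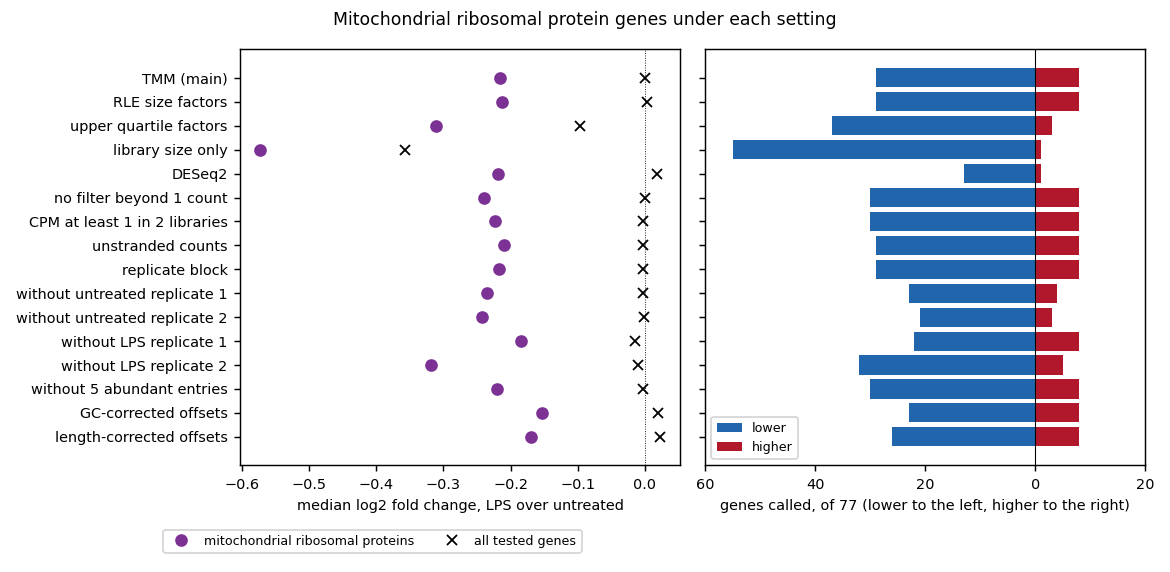
Left, the median log2 fold change of LPS over untreated of the 77 genes (circles) and of all tested genes (crosses) under each setting; right, the number of the 77 called lower (to the left) and higher (to the right). Library-size scaling moved both medians, to -0.57 and -0.36, and calls ranged from 13 to 55 lower and from 1 to 8 higher.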

How the data were processed

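Strand-specific RNA-seq was made from total RNA depleted of ribosomal RNA, per the labels' protocols. Values are the authors' deposited counts of reads per gene symbol, from the reverse-strand column. The tools listed in the submitters' processing notes are STAR 2.5.1, Trimmomatic 0.33, CASAVA 1.8.2 and DESeq2. Those notes give the build as hg19, although the organism and the symbols are mouse, so no gene position was taken from the files. The annotation used for counting is not stated. The extraction text also names human stem cells.

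The 4 summary lines were left out, which hold the reads in no feature, 59.1% and 57.4% of uniquely placed reads in LPS and 53.0% and 51.8% in untreated libraries. Genes were filtered with edgeR's expression filter, scaled with TMM and tested two-sided with edgeR 4.0.16 (quasi-likelihood, robust, treatment only, 2 residual degrees of freedom) in R 4.3.3, on all 9992 genes, with Benjamini-Hochberg adjustment and a threshold of 0.05. SE is approximated as the size of the log2 fold change over the root of its F statistic. CPM is relative to the TMM-scaled library size. GC content and the GC and length offsets use the longest GENCODE vM21 transcript, available for 96.6% of tested genes. Levels per length use the transcript annotated as principal in GENCODE vM21. Within a group the 2 libraries differed beyond counting noise, with a chi-square of 2.44 per degree of freedom in LPS and 1.52 in untreated libraries, and were counted as 2 samples. Mitochondrially encoded genes were not analysed here.

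Alternatives were other scalings, DESeq2 1.42.0, 2 filters, unstranded counts, a replicate block, leaving out each library or the 5 abundant entries, and GC or length offsets. Named genes were the 10 largest falls and up to 10 rises among called members, the 5 most abundant, the Mrps18 genes, Mrps36 and up to 4 called genes per other list by smallest p. Any other gene named was picked with its values in view. The members, lists, tests and alternatives were chosen with earlier results of these data known. The fit was also run on simulated counts with few changed genes, balanced between rises and falls, which does not check the scaling.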

Additional observations from a re-analysis of the deposited data

Results flagged for a closer look

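Reads on the strand opposite to Mrpl27, which the main fit does not use, numbered 4 and 5 in LPS replicates 1 and 2, 9 in all. They numbered 0 in both untreated libraries. All 77 members were screened with a floor of 3 counts, and Mrpl27 was the only member flagged, just above that floor. Eme1, a DNA repair gene, overlaps Mrpl27 on the opposite strand in GENCODE vM21. Eme1 had 30.5 and 28.8 CPM in LPS libraries and 27.3 and 26.1 CPM in untreated libraries (log2 fold change 0.15, edgeR adjusted p = 0.45). Over all members, opposite-strand reads were 0.902% and 1.16% of member reads in LPS libraries and 1.03% and 1.04% in untreated libraries. The cause was not tested.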

How the results depend on the processing

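The number of members higher was 3 with upper-quartile scaling, 1 with library size only and 1 in DESeq2, and 3 to 8 when a library was left out. The number lower was 55 with library size only, 13 in DESeq2 and 21 to 32 when a library was left out. The members' median was -0.31 with upper-quartile scaling, -0.57 with library size only, -0.15 with GC offsets, -0.17 with length offsets and -0.32 to -0.18 when a library was left out. Over all genes, library size only gave 1379 higher and 4778 lower, DESeq2 1760 higher and 1405 lower, and leaving out a library 2114 to 2547 higher and 1949 to 2370 lower. Signs turned for Mrpl9 with library size only (-0.024), for Mrpl17 with upper-quartile scaling (-0.060), library size only (-0.32) and GC offsets (-0.15), for Mrps18a with GC offsets (0.028), and for Mrps36 without untreated replicate 1 (0.097) and without LPS replicate 1 (0.30), its range over left-out libraries being -0.82 to 0.30. Of the named members' values under the alternatives, 307 kept their call and direction, 44 lost the call, 2 gained it and these 7 turned. The cause was not tested.

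Replicate numbers are shared by the groups. The difference between replicates was nearly uncorrelated between the groups (r = -0.04 over 9992 genes). With a single difference in each group, this cannot show whether same-numbered libraries were paired. With the replicate block, 29 members were lower and 8 higher, and the median was -0.22. With 2 libraries a group and 76 to 118 counts over all 4 for the thinnest members, small changes were not detectable at this depth.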

Other observations

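Reads on the strand opposite to Mrps25 numbered 39 and 31 in LPS libraries and 142 and 126 in untreated libraries, while Mrps25 itself had 52.7 and 59.5 CPM in LPS libraries and 61.6 and 54.6 CPM in untreated libraries (log2 fold change -0.05, edgeR adjusted p = 0.76). Nr2c2, a nuclear receptor gene, overlaps Mrps25 on the opposite strand in GENCODE vM21. Nr2c2 had 31.5 and 26.7 CPM in LPS libraries and 61.0 and 62.6 CPM in untreated libraries (log2 fold change -1.09, edgeR adjusted p = 3.5e-09). Whether the opposite-strand reads come from Nr2c2 was not tested. In 2 members the unstranded count was under 90% of the reverse-strand count. These were Mrpl24, at 54.0%, and Mrps27, at 70.7%, and Mrpl24 was not called with unstranded counts.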
